A study of Mus musculus with 6 samples.

Results

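Stefin A genes and WAP-domain genes encode small protein inhibitors of the proteases that white blood cells carry, and 9 of them are described here in bone marrow of mice with and without the miR-181a2b2 locus. The 9 genes are 4 stefin A genes (Stfa1, Stfa2, Stfa2l1 and Stfa3), 3 genes of the WAP (whey acidic protein) domain family (Wfdc17, Wfdc21 and Slpi) and 2 further members of the cystatin superfamily (Cst3 and Cstb). They are 9 of the 49315 gene rows of the deposited count table, picked by name, and all 9 were among the 16956 rows with enough counts to be tested. The picking was done with the KO against WT result of these libraries already known, so that comparison is a description for the 9 genes. The number of them that each method called is printed for completeness, and nothing rests on it.

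The KO group held 3 libraries labelled miR-181a2b2-/- (replicates 2, 3 and 4), and the WT group held 3 libraries labelled miR-181a2b2flox/flox, whose locus is floxed and not deleted (replicates 1, 3 and 4). All 6 came from animals fed the diet that the labels call HFSC and subjected to hindlimb ischemia, in which blood flow to a leg is blocked, so no untreated marrow is compared. The sources used here state neither age, sex nor the Cre driver of the deletion. They also do not say that each library is a separate animal, and the spread between libraries may therefore be technical in part. RNA was selected for poly(A) tails and sequenced.

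Cysteine cathepsins are proteases of the lysosome, and stefins (A and B types, inside cells) and cystatins such as cystatin C (secreted) block them by laying conserved loops across the active site. Neutrophil granules hold serine proteases such as elastase, and the WAP-domain protein Slpi blocks those. In the mouse the stefin A gene has been duplicated into a cluster on chromosome 16 whose copies are very alike, and several of these copies are known from neutrophils and their marrow precursors.

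The stefin A genes are shown first by a stretch of the part that binds proteases, because it also shows how alike the copies are. The lines give 30 coding bases, 5′ to 3′, from GENCODE M21 transcripts (GRCm38), around the first protease-binding loop, and capitals mark each base that differs from Stfa1. The stretch starts at coding base 130 in Stfa1, Gm5483, BC100530 and Cstb, and at coding base 148 in Stfa2, Stfa2l1 and Stfa3.
Stfa1: aaaactcaagtcgtcgctggagaaaatatc
BC100530: aaaactcaagCcgtcgctggagaaaatatc
Gm5483: aaaTctcaagtcgtcgctggaCaaaatTAc
Stfa3: aaaTctcaagtcgtTgctggaCaaaatTtG
Stfa2: aaaGTtcaagtcgtcCAAggaCTaaatTAc
Stfa2l1: aaaGTtcaagtcgtcCAAggaCTaaatTAc
Cstb: aaGaGAcaGAtAgtGgctggCACCaaCCtc
Stfa2 and Stfa2l1 were identical over this stretch and differed from Stfa1 at 9 of the 30 bases. Stfa3 differed from Stfa1 at 5, Gm5483 at 4 and BC100530 at 1, whereas Cstb, the stefin B gene on another chromosome, differed at 13.

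Over the whole coding sequence Stfa2 and Stfa2l1 matched at 96.4% of 309 aligned bases, and Stfa1 matched its neighbour BC100530 at 97.9% of 291. Stfa3 had 84.5% identity to Stfa1, 81.6% to Stfa2l1 and 80.9% to Stfa2, and Stfa1 had 79% to Stfa2 and 77.7% to Stfa2l1. Reads can be counted to a single copy only where they hold a difference. Of all 50-base words in the longest spliced transcript, 26.9% in Stfa1, 24.6% in Stfa2l1 and 15.9% in Stfa2 also occurred in another gene, and for words of 100 bases this held for 5.6% in Stfa1, shared with BC100530, and for 0 in the other 3. Neither word length was shared with any other gene in Stfa3, Wfdc17, Wfdc21, Slpi, Cst3 or Cstb. The sources used here do not say how the authors' counting treated reads that match several places. The split of reads among Stfa1, Stfa2 and Stfa2l1 is therefore uncertain, and the 10 stefin A rows of the cluster were also summed.

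The promoters of the 4 stefin A genes were alike too, with 80.2% to 89.4% identity between pairs. The identity covers the 250 bases before the start of transcription in the RefSeq promoter sequences (GRCm38.p6). The 50 bases after the start that these sequences also hold were not compared. Pairs of a stefin A gene and Wfdc17, Slpi or Cst3 lay between 36.7% and 44.9%. The 30 bases shown for each gene lie 11 to 44 bases before the RefSeq start and are printed because the 4 genes share in them the 13-base word in capitals.
Stfa1: tttcggatACCTTTAAAACCCtgagtctca
Stfa2: ttacagaaACCTTTAAAACCCtgagtctct
Stfa2l1: ttacagaaACCTTTAAAACCCtgagtctct
Stfa3: tacagataACCTTTAAAACCCcgagtctca
These windows are chr16:36277107-36277136 (plus strand), chr16:36408374-36408403 (minus strand), chr16:36156767-36156796 (plus strand) and chr16:36455405-36455434 (minus strand), in the order printed. Those of Stfa1 and Stfa2 lie inside the GENCODE spans of these genes given further on, whose starts differ from the RefSeq starts. Searched on both strands in the 250 bases before the start, the word occurred in 7 of 27025 mouse promoters (0.0259%). It was picked as a word that the 4 stefin A promoters share, so these are among the 7 by construction. The others were those of Csta3, Cstdc4 and Gm7260. The shorter motif TTTAAA inside the word, searched in the same way, was found in 12.1% of all promoters. It was found in 4 of the 7 inhibitor genes with a promoter sequence, the stefin A genes. The purine core that the myeloid factor PU.1 binds, GAGGAA, was found in 6 of the 7, all but Slpi, and in 23.1% of all promoters. TATAAA and the AP-1 motif TGANTCA were found in 0 of the 7, against 13% and 6.87% of all promoters, and the C/EBP core TTGCNNAA in Stfa1 and Slpi, against 9.55%. These motifs were chosen after the sequences had been seen, and a match is a run of letters, not a shown binding site.

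The locus that the KO mice lack encodes miR-181a and miR-181b, whose main arms share the seed, the bases 2 to 8 that pair with target messenger RNAs, printed in capitals from RefSeq (GRCm38.p6, plus strand, chr2:38852741-38852763 and chr2:38853845-38853868).
miR-181a-5p: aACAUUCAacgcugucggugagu
miR-181b-5p: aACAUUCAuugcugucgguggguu
A 7-base site was either the complement of this seed, or the complement of its bases 2 to 7 (the 6-base core) followed by A. One or both forms occurred in the longest coding transcript of 1 of the 9 genes, Stfa2 (11.1%), against 7039 of 21877 protein-coding genes (32.2%). The 9 transcripts are 412 to 876 bases long and the shares were not matched for length, on which a match by letters depends, so the 2 shares are not a like comparison. Cst3 held the 6-base core in neither of the 7-base forms. The miRNA sequences are those annotated to Mir181a-2 and Mir181b-2. The libraries did not measure mature miRNAs, so whether KO marrow lacks miR-181a and miR-181b altogether is not known here.

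Levels in marrow spanned a wide range, and levels of different genes were compared per length, as CPM per kilobase of exon (RPKM). Wfdc21 stood highest, at 1067 ± 251 RPKM in KO and 580 ± 57.2 RPKM in WT (SD, n = 3 each). Cst3 followed at 276 ± 25.8 RPKM in KO and 208 ± 11.5 RPKM in WT, and Slpi at 215 ± 11.0 RPKM in KO and 163 ± 17.6 RPKM in WT. Each of these 3 genes stood apart from the next in every library of both groups.

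The middle of the order was less sharp. Stfa2l1 averaged 97.1 ± 22.9 RPKM in KO and 57.6 ± 16.3 RPKM in WT, Wfdc17 84.9 ± 63.2 RPKM in KO and 35.4 ± 9.44 RPKM in WT, and Cstb 57.5 ± 7.51 RPKM in KO and 41.5 ± 3.45 RPKM in WT. Neighbours among these 3 overlapped in both groups, whereas all 3 stood above the remaining stefin A genes. Stfa1 averaged 11.8 ± 4.19 RPKM in KO and 5.82 ± 2.47 RPKM in WT, Stfa3 12.01 ± 6.16 RPKM in KO and 4.06 ± 1.01 RPKM in WT, and Stfa2 5.77 ± 2.55 RPKM in KO and 3.03 ± 0.955 RPKM in WT. Neighbours in this lowest group overlapped too. All 9 kept their rank when the length of the longest transcript took the place of the summed exons.

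**Figure D1:**
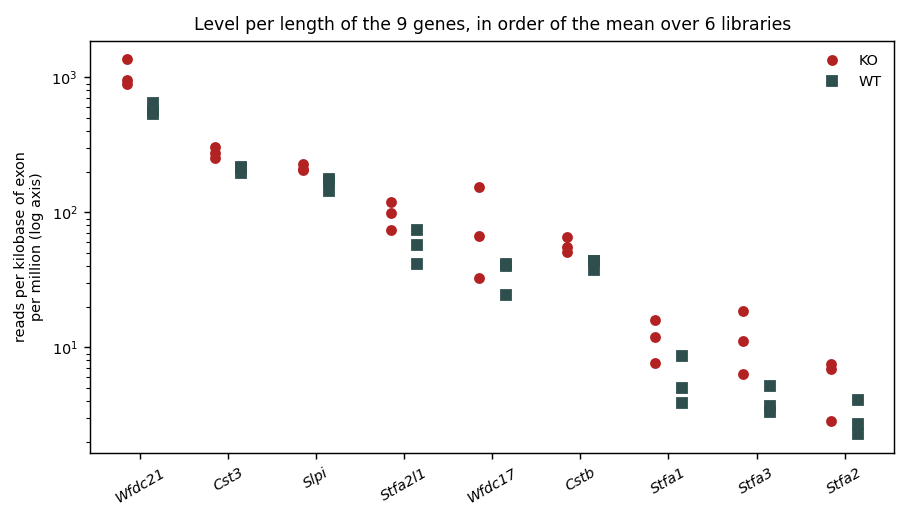
Level per length of each gene (RPKM, log axis) in the 3 KO libraries (circles) and 3 WT libraries (squares), in order of the mean over 6 libraries. Wfdc21 lies highest, between 895 and 1356 in KO and between 534 and 644 in WT, and Stfa2 lowest, between 2.85 and 7.56 in KO and between 2.27 and 4.10 in WT.

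All 9 genes had a higher mean in KO than in WT, with log2 fold changes (KO minus WT) between 0.39 and 1.56, a median of 0.88, and a median over all genes tested of -0.01. For 5 of the 9 (Stfa3, Wfdc21, Slpi, Cst3 and Cstb) every KO library lay above every WT library, which held for 14.4% of all genes tested. Since the genes were picked with this contrast known, these counts describe the choice. The values by gene follow, in CPM (counts scaled to a common library size by TMM). In bulk marrow more cells of a type and more RNA per cell cannot be told apart.

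The 4 stefin A genes were higher on average in KO, and their libraries overlapped in all but Stfa3. Stfa2l1 (ENSMUSG00000059657, chr16:36156811-36161953, plus strand), the most abundant of the 4, had 49.9, 30.8 and 41.4 CPM in KO replicates 2, 3 and 4, against 17.3, 24.2 and 30.9 CPM in WT replicates 1, 3 and 4. KO replicate 3 lay just below WT replicate 4, and the other 2 KO libraries above all WT libraries. Its log2 fold change was 0.75 ± 0.25 (SE), a 1.68-fold difference.

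Stfa1 (ENSMUSG00000071562, chr16:36276951-36285373, plus strand) had 11.4, 5.42 and 8.40 CPM in the same KO libraries, against 2.74, 3.56 and 6.10 CPM in the WT libraries. Again KO replicate 3 lay below WT replicate 4 alone. The log2 fold change was 1.02 ± 0.35 (SE), or 2.02-fold. Stfa2 (ENSMUSG00000022902, chr16:36403992-36408457, minus strand) was the scarcest, with 3.56, 1.34 and 3.25 CPM in KO, against 1.07, 1.28 and 1.93 CPM in WT. Its KO replicate 3 lay within the WT range, and the log2 fold change was 0.92 ± 0.38 (SE). The lowest count of any of the 9 genes was 37, of Stfa2 in WT replicate 1, while 3 counts, the most that a count of 0 allows, correspond to between 0.0743 and 0.0886 CPM in these libraries.

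Stfa3 (ENSMUSG00000054905, chr16:36450537-36455392, minus strand), which shares no 50-base word with another gene, had the largest log2 fold change of the 9, 1.56 ± 0.38 (SE), or 2.94-fold. Its level was 7.66, 2.63 and 4.56 CPM in KO, against 1.36, 1.52 and 2.15 CPM in WT. The groups did not overlap, although the KO libraries themselves differed by 2.92-fold. It was the stefin A gene that made up a larger part of the cluster's reads in KO, 5.05 ± 1.19%, than in WT, 3.31 ± 0.393%, in each library. The largest part was taken by Stfa2l1, 44.0 ± 2.83% in KO and 47.2 ± 3.60% in WT, and the next by Gm5483, 34.6 ± 0.276% in KO and 33.8 ± 2.99% in WT, both with overlapping groups.

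Summed over the 10 rows, the stefin A cluster had 120, 65.5 and 95.2 CPM in KO, against 36.2, 47.9 and 71.4 CPM in WT. KO replicate 3 lay below WT replicate 4 here too. The log2 fold change of the sum was 0.85 ± 0.32 (SE), so the higher mean in KO was also present in the sum, which is free of the split among its rows. Reads dropped for matching several places, or counted to like genes outside the sum, would still be missing from it. Of the 6 rows of the sum outside the 9 genes, Gm5483 had 42.1, 22.5 and 32.9 CPM in KO and 11.8, 15.04 and 26.5 CPM in WT, and BC100530 had 5.10, 2.32 and 3.89 CPM in KO and 1.44, 1.96 and 3.15 CPM in WT. Csta1, Gm5416, BC117090 and 2010005H15Rik had at most 18 counts in any library and were not tested.

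**Figure D2:**
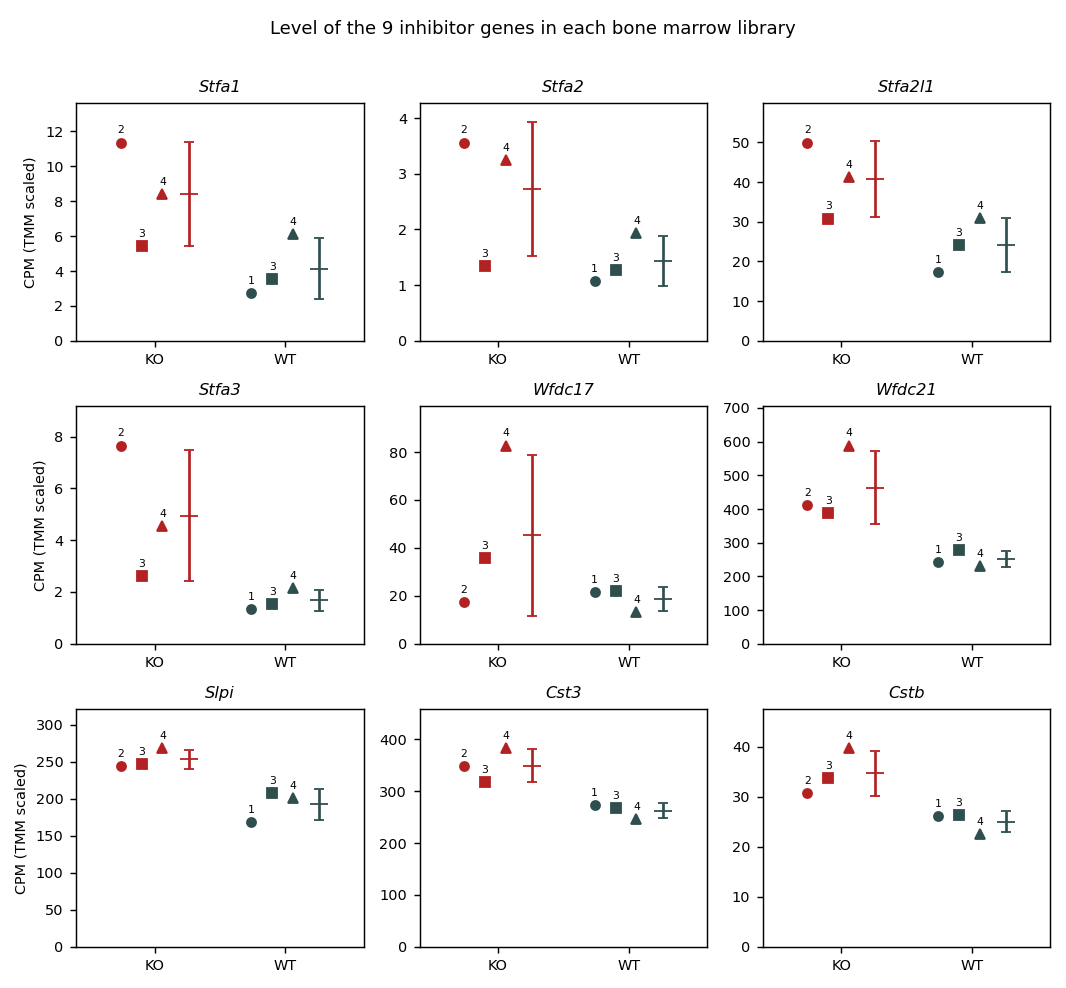
Level of each of the 9 genes in CPM (scaled by TMM, axes from 0) in each library, KO left and WT right, with replicate numbers above the points and the mean ± SD of each group beside them. The KO libraries lie above all WT libraries in Stfa3, Wfdc21, Slpi, Cst3 and Cstb, and the points of KO replicate 4 stand far above the others in Wfdc17 (82.7 CPM).

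Among the WAP-domain genes, Wfdc21 was higher in every KO library, Slpi was higher by a smaller factor, and Wfdc17 varied most. Wfdc21 (ENSMUSG00000051748, chr11:83746940-83752642, plus strand) encodes a small WAP-domain protein. It had 413, 388 and 588 CPM in KO, against 244, 280 and 232 CPM in WT. The lowest KO library stood above the highest WT library. The log2 fold change was 0.88 ± 0.16 (SE), or 1.84-fold, and 0.68 without KO replicate 4, the highest library. Slpi (ENSMUSG00000017002, chr2:164354070-164389095, minus strand), the inhibitor of elastase and cathepsin G named above, had 244, 248 and 268 CPM in KO, against 169, 208 and 202 CPM in WT. Its KO libraries differed from each other by 1.10-fold, the narrowest KO spread of the 9 genes, and the log2 fold change was 0.39 ± 0.10 (SE).

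Wfdc17 (ENSMUSG00000069792, chr11:83703991-83706268, plus strand), a WAP-domain protein of mouse macrophages and other myeloid cells, had 17.5, 35.6 and 82.7 CPM in KO, against 21.5, 22.0 and 13.1 CPM in WT. KO replicate 2 lay within the WT range and KO replicate 4 at 4.73 times the level of KO replicate 2. The log2 fold change of 1.27 ± 0.64 (SE) fell to 0.50 without KO replicate 4. The KO mean of Wfdc17 thus rests largely on a single library. Wfdc18, the neighbouring gene with 81.5% coding identity to Wfdc17, had at most 30 counts in a library and a log2 fold change of 0.66 ± 0.57 (SE, edgeR adjusted p = 0.519).

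Cst3 and Cstb were higher in every KO library by similar, small factors. Cst3 (ENSMUSG00000027447, chr2:148871722-148875692, minus strand) encodes cystatin C, a secreted inhibitor of cathepsins made by most cell types. It had 349, 317 and 383 CPM in KO, against 274, 268 and 246 CPM in WT, with a log2 fold change of 0.41 ± 0.10 (SE), or 1.33-fold. Cstb (ENSMUSG00000005054, chr10:78425669-78427622, plus strand) encodes stefin B, the cathepsin inhibitor found inside most cells. Its 30.7, 33.7 and 39.6 CPM in KO, against 26.1, 26.3 and 22.6 CPM in WT, gave a log2 fold change of 0.47 ± 0.12 (SE), or 1.39-fold. In both genes the lowest KO library stood above the highest WT library by less than the range of the KO libraries.

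**Figure D3:**
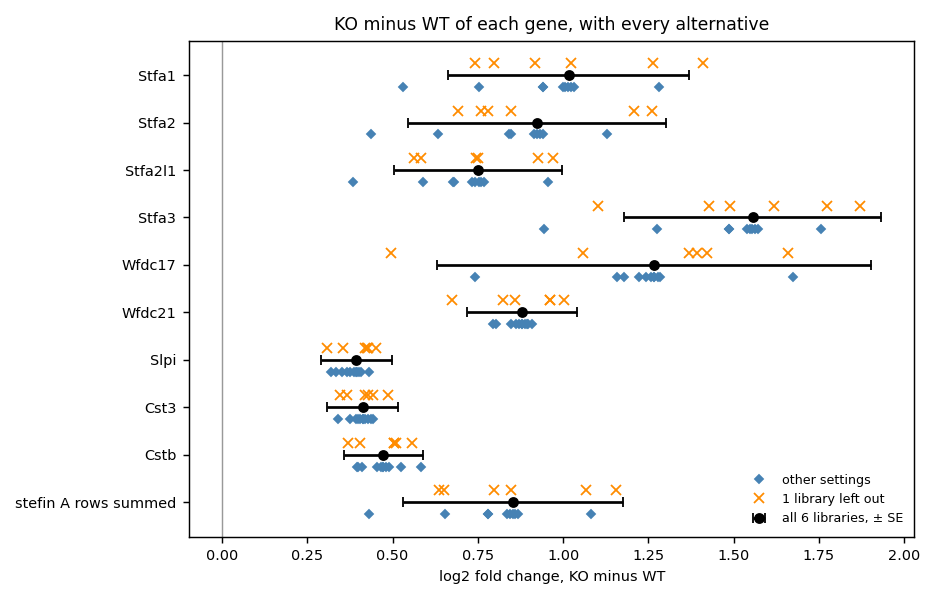
Log2 fold change (KO minus WT) of each gene and of the summed stefin A rows, with all 6 libraries (black, ± SE), under other settings of the analysis (diamonds) and with each library left out (crosses). All points lie above 0, and the widest span is that of Wfdc17, from 0.50 to 1.67.

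Which of the 9 passed a threshold depended on the method, and nothing is read from these counts. In edgeR 1 of the 9 passed an adjusted p of 0.05, Wfdc21, in the higher direction, where 0.938% of all genes tested were called higher. DESeq2 called 7, all but Stfa2 and Wfdc17, where it called 6.02% of genes higher. limma with sample quality weights called Wfdc21, Cst3 and Cstb, with 2.92% of genes higher, and edgeR without a filter on low counts called these 3, Stfa3 and Slpi, with 2.15%. Leaving out KO replicate 4, or any single WT library, left 0 of the 9 called in edgeR. Those fits called between 32 (without KO replicate 4) and 199 (without WT replicate 3) genes in all, against 417 with all 6 libraries. With KO replicate 3 left out edgeR called 4 (Stfa2, Stfa3, Wfdc21 and Cst3), among 920 genes in all. With KO replicate 2 left out it called Wfdc21 and Cstb, among 569. With the replicate number as a block it called Cstb and not Wfdc21, among 571 genes.

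The libraries of a group were not alike, and the stefin A genes shared an order among them that the other inhibitors did not show. In each of the 4 stefin A genes, and in Gm5483 and BC100530, KO replicate 2 was highest and KO replicate 3 lowest among KO, and WT replicate 4 was highest and WT replicate 1 lowest among WT. After the group means had been subtracted, the log2 CPM of the 4 genes correlated over the 6 libraries with r between 0.872 and 0.976. Wfdc17 and Cstb had another order in common, with KO replicate 4 highest and KO replicate 2 lowest among KO, and WT replicate 3 highest and WT replicate 4 lowest among WT (r = 0.97). Wfdc21 correlated with Wfdc17 at r = 0.805 and with Cstb at r = 0.832. Between the stefin A genes and Wfdc17 r lay from -0.515 to -0.192, and with Cstb from -0.524 to -0.198. With Slpi r lay from 0.17 to 0.585, with Wfdc21 from 0.019 to 0.346 and with Cst3 from -0.028 to 0.37. These r are over 6 values with 2 means removed and describe these libraries. The stefin A copies also share some reads.

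**Figure D4:**
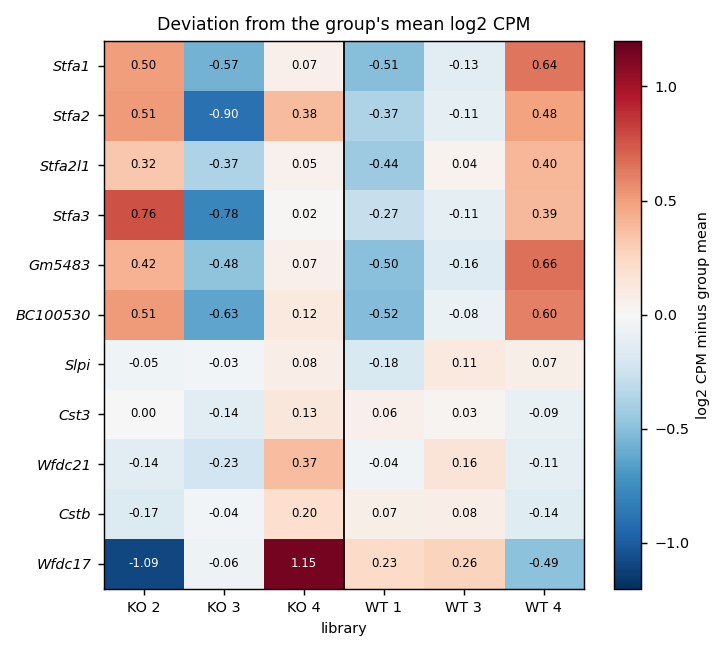
Deviation of each library from its group's mean log2 CPM (colour and printed value) for the 9 genes and the 2 further stefin A rows that were tested, KO libraries left of the line and WT libraries right of it. The 6 stefin A rows are all above 0 in KO replicate 2 and WT replicate 4 and below 0 in KO replicate 3 and WT replicate 1, while Wfdc17 reaches -1.09 in KO replicate 2 and 1.15 in KO replicate 4.

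KO replicate 4 stood apart from the other libraries on the first principal component, at 53.9 against 9.09 and 12.02 for KO replicates 2 and 3 and -21.9 to -27.5 for the WT libraries, a component with 40.05% of the variance. Of the 9 genes 5 (the WAP-domain genes, Cst3 and Cstb) were highest in that library, whereas the 4 stefin A genes were highest in KO replicate 2. Without KO replicate 4 the log2 fold changes of the stefin A genes were 1.02 (Stfa1), 0.78 (Stfa2), 0.75 (Stfa2l1) and 1.62 (Stfa3).

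Both groups also mixed libraries with and without Xist, the RNA of the silenced X chromosome of females. KO replicate 2, WT replicate 3 and WT replicate 4 had between 3.50 and 6.65 CPM of Xist and the other 3 at most 0.220 CPM, and the labels give no sex. In each group the stefin A genes were higher in the libraries with Xist than in those without it. Among the libraries with Xist the summed stefin A rows were higher in KO by 1.04 on the log2 scale (1 KO against 2 WT libraries), and among the others by 1.13 (2 KO against 1 WT library). With Xist as a covariate the log2 fold change of the sum was 1.08, and edgeR called Stfa3 and Stfa2l1 and not Wfdc21. That fit called 209 genes in all. For Wfdc17 the differences were 0.04 among the libraries with Xist and 1.34 among the others, and for Wfdc21 0.70 and 0.97. These within-class values have too few libraries for a test.

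Markers of other marrow cells differed between the same libraries. Granulocyte genes were higher in KO. The 20 late neutrophil genes summed to 91513, 84934 and 103258 CPM in KO, against 56780, 73648 and 58642 CPM in WT, and 4 of the 20 rose and 0 fell in edgeR, with a median log2 fold change of 0.51 (16 rose in DESeq2). The 4 were Camp, S100a8, Chil3 and Mcemp1, with adjusted p between 0.0401 and 0.0460. Over all genes tested edgeR called 0.938% higher and 1.52% lower, and DESeq2 called 6.02% higher. These shares stand beside every list below. In edgeR 0 of the 20 were called with KO replicate 4, WT replicate 1 or WT replicate 4 left out, with the replicate number as a block or with the Xist covariate. B cell markers summed to 426, 145 and 162 CPM in KO and to 391.5, 338 and 543 CPM in WT, so that KO replicate 2 and WT replicate 4, the libraries highest in stefin A, were also highest in their groups here. Of the 10 B cell genes 0 passed in edgeR (1 fell in DESeq2 and 1 at an unadjusted p under 0.05), with a median of -0.71. That count rested on KO replicate 2, since 7 of the 10 were called in edgeR with it left out, and all 10 were called with the replicate number as a block.

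The inhibitors were also set against the late neutrophil sum, and on this scale the groups overlapped for all of the 9 but Wfdc21. Per 1000 CPM of those 20 genes, Wfdc21 had 4.51, 4.57 and 5.70 CPM in KO, against 4.29, 3.796 and 3.95 CPM in WT. It was the single gene of the 9 whose groups did not overlap on this scale, with a log2 difference of 0.29. Stfa3 averaged 0.0529 ± 0.0274 per 1000 in KO and 0.0270 ± 0.00842 in WT, a log2 difference of 0.89, and Stfa1, Stfa2, Stfa2l1 and Wfdc17 had log2 differences of 0.47, 0.28, 0.20 and 0.45, all 5 with overlapping groups. Slpi, Cst3 and Cstb were slightly lower in KO per late neutrophil CPM, by -0.17, -0.16 and -0.10 on the log2 scale, also with overlap. The part of the neutrophil genes in the inhibitors' difference was not tested.

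Other cell types were checked by marker lists too. Of 10 monocyte markers 1 rose, Ly6c2 (log2 fold change 0.50, adjusted p = 0.0474), and 0 fell, with a median of 0.03. Among 11 tested macrophage markers 0 rose and 1 fell, Siglec1, a receptor of resident macrophages (7.49 ± 0.654 CPM in KO and 15.5 ± 1.16 CPM in WT, SD, n = 3 each, adjusted p = 0.0103), where 1.52% of all genes were called lower. DESeq2 called 2 of the 11 lower and 0 higher, and at an unadjusted p under 0.05 3 were lower and 1 higher. Erythroid markers had a median of -0.39, and 1 of 10 fell, the red cell membrane gene Sptb (adjusted p = 0.0220). The log2 fold change was above 0 in 0 of the 10, and 3 were lower in DESeq2 and 3 at an unadjusted p under 0.05. Dendritic cell markers had a median of -0.11 with 0 of 10 called in edgeR (1 lower in DESeq2 and 1 at an unadjusted p under 0.05).

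Keratinocytes, which in other tissues also make stefin A, left little trace. The 7 keratinocyte markers together came to between 0.586 and 1.57 CPM in KO and between 0.715 and 1.23 CPM in WT, with Krt10 alone tested. Although the label gives marrow as the source, the extraction text names white adipose tissue. The 6 adipocyte markers summed to 33.3, 24.5 and 40.3 CPM in KO and to 24.0, 16.8 and 26.5 CPM in WT and the late neutrophil genes to at least 56780 CPM in every library.

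The proteases that these inhibitors bind were measured in the same libraries. Elane, which encodes neutrophil elastase, rose in KO to 1378 ± 128 CPM, against 924 ± 27.8 CPM in WT (SD, n = 3 each), a log2 fold change of 0.58 ± 0.11 (SE, edgeR adjusted p = 0.0350). The other 3 neutrophil serine protease genes did not pass, with log2 fold changes of 0.69 for Prtn3 (proteinase 3, adjusted p = 0.0628), 0.58 for Ctsg (cathepsin G, adjusted p = 0.0809) and 0.46 for Prss57 (adjusted p = 0.0707). In all 4 every KO library lay above every WT library, which held for 14.4% of all genes tested. DESeq2 called all 4, where it called 6.02% of genes higher, against 0.938% in edgeR. The median of the 4 was 0.58.

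Of the 11 genes of cysteine cathepsins and legumain, the targets of stefins and cystatins, 0 rose and 0 fell in edgeR, with a median log2 fold change of 0.23. At an unadjusted p under 0.05 3 were higher, and DESeq2 and limma each called 1 higher. The smallest adjusted p was that of Ctsh, a lysosomal aminopeptidase (193 ± 9.27 CPM in KO and 152 ± 14.3 CPM in WT, log2 fold change 0.35, adjusted p = 0.0827). Ctss, the cathepsin of antigen-presenting cells, had 0.37 (adjusted p = 0.151), Ctsz 0.37 (adjusted p = 0.183) and Ctsk, the osteoclast cathepsin, -0.68 (adjusted p = 0.238).

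Related inhibitors outside the 9 genes were mostly higher in KO without passing the test. Of 20 stefin and cystatin relatives with a row, 5 were tested and 0 passed in edgeR, with a median log2 fold change of 0.87 (3 were called higher by DESeq2 and 3 at an unadjusted p under 0.05). Cst7, the leukocyte cystatin F, had 48.3 ± 6.15 CPM in KO and 36.8 ± 2.82 CPM in WT, with a log2 fold change of 0.39 (adjusted p = 0.0820). The kininogen genes Kng1 and Kng2 had 1.28 (adjusted p = 0.0947) and 1.10 (adjusted p = 0.0820), at under 5 CPM in every library, and the other 2 of the 5 are stefin A copies. The other WAP-domain genes were near absent. Of 20 with a row, 10 had no count in any library, 4 were tested and 0 passed in edgeR, DESeq2 or at an unadjusted p under 0.05, with a median of -0.27 and a summed level between 2.01 and 2.80 CPM in KO and between 2.10 and 3.47 CPM in WT.

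Among 20 serpins and other leukocyte protease inhibitors 16 were tested, 1 rose and 0 fell, with a median of 0.50. The gene that rose was Serpinb1a, the inhibitor of elastase, proteinase 3 and cathepsin G inside neutrophils, at 581 ± 79.2 CPM in KO and 359 ± 3.04 CPM in WT (SD, n = 3 each), a log2 fold change of 0.70 ± 0.11 (SE, edgeR adjusted p = 0.0252). Serping1, the C1 inhibitor of the complement system, lay 1.13 higher on the log2 scale (adjusted p = 0.0505), Spint2 0.36 (adjusted p = 0.0731) and Serpina3f 0.81 (adjusted p = 0.0903). Elane and Serpinb1a were not called when KO replicate 4 or any single WT library was left out, whereas Siglec1 was called in each such fit. Over all 13 lists edgeR called 9 genes with 6 libraries. Of these 9, Siglec1 alone was called with KO replicate 4, WT replicate 1 or WT replicate 4 left out. With KO replicate 4 left out Ctsk of the cathepsin list was called too, and with WT replicate 4 left out Serping1. With KO replicate 2 left out 21 list genes were called.

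Genes whose levels moved most like the inhibitors from library to library were ranked among 9231 genes by r over the 6 libraries after the group means had been subtracted. For the summed stefin A rows they were Trabd, Coq10a, Tex261, Traip and Cenpt, with r between 0.981 and 0.988. For Wfdc21 they were Lztfl1, Rabl3, Gpatch11, Mrpl48 and Zfand5 (r from 0.993 to 0.998), and for Cst3 Nrbf2, Gtpbp8, Snf8, Tmem128 and Mospd1 (r from 0.994 to 0.997). Of these 15 genes Trabd alone passed the KO against WT test (log2 fold change 0.40 ± 0.08, SE, edgeR adjusted p = 0.0379). The r values are the highest of 9231, each over 6 values with group means removed, so their height comes in part from the ranking. No link between these genes and the inhibitors is read from them.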

How the data were processed

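Poly(A)-selected RNA of 6 mouse bone marrow libraries (3 KO, 3 WT, grouped by the genotype in the labels) was measured. The authors deposited raw read counts per gene. The submitters' processing notes name STAR 2.5.2b, Trimmomatic 0.36, Subread 1.5.2, featureCounts and the build GRCm38. The sources used here state no strand setting, multi-mapping setting or annotation release. Total counts were 33861440, 36394812 and 39566582 in KO and 34000323, 40034773 and 40359093 in WT.

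Identifiers were matched to GENCODE M21. Of 49315, 49056 had a symbol, and the rest held 0.0171% of counts. The deposited counts were fitted in R 4.3.3 by edgeR 4.0.16 (TMM, filterByExpr, robust quasi-likelihood, two-sided). Adjusted p-values follow Benjamini-Hochberg over all genes tested, with a threshold of 0.05. The procedure was tested on simulated data. The smallest p of an exact permutation of 3 against 3 libraries is 0.1, so no single-value test was made. DESeq2 1.42.0, limma 3.58.1, other scalings and filters, the replicate number, left-out libraries and summed copies were alternatives. The members and lists were chosen with earlier results of these data known, and the Xist covariate after seeing the data. Named genes are every member, up to 4 tested genes per list with the smallest p, and the 5 most alike in pattern at a mean log2 CPM of 3 or more. Intervals and floors of 3 counts cover counting error only. Promoters and miRNAs are from RefSeq (7 of the 9 genes matched).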

Additional observations from a re-analysis of the deposited data

How the results depend on the processing

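All 164 log2 fold changes of the 9 genes and the summed stefin A rows under alternatives stayed above 0, and 163 stayed within 1 SD between replicates of the value with all 6 libraries. The exception was Stfa3, at 0.94 with the replicate block against 1.56 without it. Each gene was held to its own SD, so a wide spread tolerates a large shift. Wfdc17 counted as within it at 0.50 without KO replicate 4, against 1.27. Under the block Stfa1 was at 0.53 against 1.02, Stfa2 at 0.44 against 0.92, and Stfa2l1 at 0.38 against 0.75. The summed rows were at 0.43 against 0.85 and Slpi at 0.33 against 0.39. Wfdc17, Wfdc21, Cst3 and Cstb were higher under the block than without it. The groups share replicate numbers 3 and 4 only, and the deviations of samples with the same number correlated with r = 0.21 for replicate 3 and -0.139 for replicate 4. These 2 pairs do not settle whether the numbers mark a batch, and the labels do not say that they do. Under that block 24 list genes were called, against 9 without it, and 1 of the 9 inhibitors, Cstb. Over all genes edgeR called 417, against 1577 in DESeq2, 1057 in limma, 1492 without a filter on low counts and 209 with the Xist covariate, and between 32 and 920 with a library left out. Of the 9 inhibitors 1 was called, against 7, 3, 5 and 2 under the same settings in that order, and between 0 and 4 with a library left out. List genes called were 38, 24, 33 and 2, and between 1 and 21 with a library left out. The cause of these shifts was not tested. Under a minimum mean log2 CPM of 1 Stfa2 was not tested, and with the stefin A rows summed the single stefin A genes have no value. Depth limits the scarcest genes most, with Stfa2 at 37 to 122 counts.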
